A study of Danio rerio with 4 samples.

Results

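The probes described here are the 38 that were higher with klf4-MO, a morpholino named for klf4, than with STD-MO, the comparison morpholino, in zebrafish (Danio rerio) RNA on every slide with scanner values of its own. They were chosen by their ratios: a log2 ratio of klf4-MO over STD-MO of at least 0.6, a 1.52-fold difference, on all 3 slides. The slides carry 16176 probes whose names start with CGENXEB, and 12931 of them had an unflagged spot on all 3 slides and could be judged. The 38 are 0.294% of these. With the sign turned, the same rule gave 27 lower probes. Because the ratios on the 3 slides made the choice, they are given as a description and carry no test.

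The study compared 2 kinds of embryo on 2-colour arrays, in which amplified RNA of both kinds is labelled with different dyes and hybridised together. One kind was given klf4-MO and the other STD-MO, and no further treatment, strain or allele is named in the labels. Each array is named here by the number of its RNA pair. By their titles, arrays 1a and 1b both carry pair 1 and have klf4-MO in Cy3 (green). Arrays 2 and 4 carry pairs 2 and 4 and have klf4-MO in Cy5 (red). The titles skip 1 number between pairs 2 and 4, and whether arrays 1a and 1b hold the same RNA was not tested. All titles carry the tag 18S, and the labels do not say how many embryos were pooled or whether the pairs came from separate clutches. Spread between arrays may thus be technical.

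A morpholino pairs with an RNA and blocks its translation or its splicing, so it lowers the protein and need not lower the transcript. The product of klf4 is a DNA-binding protein of the Krüppel-like family, whose members raise or lower the transcription of their targets, and in zebrafish embryos factors of this family take part in forming the first red blood cells. In whole embryos, more cells of a type and more RNA per cell cannot be told apart in a ratio of this kind. The probe names are numbers that neither the files nor the reference tables pair with genes, so no gene, pathway or cell type is named below, and the level of klf4 itself is not analysed here.

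Array 1a could serve as an array that did not choose the probes. The scanner file given for it is a copy of that of array 2, so its ratios come from the authors' value table, which holds log2 ratios for all 4 arrays. Flags took out 5.96%, 6.02% and 13.6% of the probe spots on arrays 2, 1b and 4. The median probe had a foreground between 3.60 and 5.94 times its local background in the 6 channels. The precision of each value is limited by the number of arrays.

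The 38 probes ranged from a 1.59-fold to a 5.05-fold mean excess in klf4-MO embryos, with a median of 2.49-fold. These folds are lower bounds for CGENXEB_456012998_0 (4.17-fold), saturated in klf4-MO on all 3 slides, and CGENXEB_456000845_0 (3.37-fold), with saturated readings on 2 slides, so the order of the largest means is not fixed. Of them all, 5 had a mean log2 ratio of at least 2, 23 had one from 1 to 2 and 10 lay below 1. At least 2-fold on every slide were 22 of the 38. On arrays 2, 1b and 4 they had median log2 ratios of 1.45, 1.22 and 1.27, where the medians over all judged probes were 0.0038, -2.1e-05 and 0.0063.

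The 5 probes with the largest means held a log2 ratio above 1.5 on every array. CGENXEB_456015047_0 had log2 ratios of 2.68, 2.39 and 1.93 on arrays 2, 1b and 4, and array 1a gave 2.46. The mean over the 3 slides was 2.34 ± 0.378 (SD, n = 3), a 5.05-fold excess. It was a bright spot: its foreground intensity before background correction was 60852.5 in the klf4-MO channel and 5050 in the STD-MO channel of array 2. On array 1b these readings were 27750 and 8745, and on array 4 they were 22221 and 1321. The klf4-MO channel was thus the brighter one in both dye orientations before any normalisation.

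CGENXEB_456003774_0 had log2 ratios of 2.43, 2.22 and 2.09 on arrays 2, 1b and 4, a mean of 2.25 ± 0.173 (SD, n = 3) or 4.75-fold. Its STD-MO foreground was low, at 841, 1981 and 394 on these arrays, over local backgrounds of 219, 389.5 and 107. Array 1a gave 1.59, the lowest of its 4 values, which still lay above the threshold.

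CGENXEB_456000600_0 varied more. It gave 1.55, 2.54 and 2.19 on arrays 2, 1b and 4 and 1.60 on array 1a, all as log2 ratios, and the mean was 2.09 ± 0.502 (SD, n = 3). The arrays of pair 1 therefore differed, with array 1b the highest and array 1a close to the lowest.

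CGENXEB_456012998_0 was the brightest of the 38 by its mean level. Its log2 ratios were 1.95, 2.27 and 1.96 on arrays 2, 1b and 4 and 1.89 on array 1a, a mean of 2.06 ± 0.181 (SD, n = 3). The klf4-MO foreground was 65284, 64993 and 65260 on the 3 slides, at or near the top of the scanner's scale, so the klf4-MO level is only a lower bound and these ratios may understate the difference. Array 1b gave 22379 for the STD-MO foreground of this spot, against 8834.5 on array 2 and 3505 on array 4.

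CGENXEB_456000405_0 had log2 ratios of 2.35 on array 2, 2.03 on array 1b, 1.78 on array 4 and 2.02 on array 1a. The mean over the 3 slides was 2.05 ± 0.286 (SD, n = 3), or 4.15-fold. Its arrays of pair 1 lay between the other two.

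CGENXEB_456000845_0 was the only one of the 38 printed in 2 spots, which lie in the same block of the slide. The spot in row 11 gave log2 ratios of 1.68, 1.91 and 1.76 on arrays 2, 1b and 4, and the spot in row 21 gave 1.83, 2.15 and 1.18. Both spots were above the threshold on all 3 slides. The second spot was at the top of the scale in the klf4-MO channel on arrays 2 and 4, with foregrounds of 65284 and 65285, so its ratios there are lower bounds. The average of both spots was 1.75 ± 0.281 (SD, n = 3), and array 1a gave 1.83.

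Next in size came CGENXEB_456012933_0, with log2 ratios of 1.61 on array 2, 2.17 on array 1b, 1.45 on array 4 and 1.90 on array 1a. It was higher on both arrays of pair 1 than on the other two. CGENXEB_456002022_0 gave 1.36, 1.43 and 2.26 on arrays 2, 1b and 4 and 2.15 on array 1a, so the arrays of pair 1 fell on either side of its mean. By mean level it was the dimmest of the 38, with an STD-MO foreground of 299 over a background of 118 on array 4.

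CGENXEB_456008592_0 had the widest range, 1.095 on the log2 scale, and was the only one of the 38 whose slides differed by more than 1. Arrays 2, 1b and 4 gave log2 ratios of 1.03, 2.12 and 1.80, and array 1a gave 0.98. The next number in the set, CGENXEB_456008593_0, was also chosen, at 0.71, 0.93 and 1.00 on these slides and 0.58 on array 1a. This was the only pair of the 38 with successive numbers. The spots lie in blocks 25 and 3, so they were not printed side by side, and the files do not say whether successive numbers stand for related sequences.

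The last 3 of the 12 largest were alike in size. CGENXEB_456005779_0 had log2 ratios of 1.54, 1.35 and 1.60 on arrays 2, 1b and 4, a mean of 1.497 ± 0.131 (SD, n = 3), and 1.43 on array 1a. For CGENXEB_456016179_0 the 3 slides gave 1.73, 1.19 and 1.57, and array 1a 1.48. For CGENXEB_456011009_0 they gave 1.81, 1.38 and 1.28, and array 1a 1.36. Their means differed by less than 0.01, far below the SD of each, so these 3 have no order.

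The other 26 probes had means from 0.67 to 1.46. Of these, 16 had a mean of at least 1. Among the 16 the log2 ratios had a lowest, median and highest value of 0.68, 1.48 and 1.92 on array 2. On array 1b these values were 0.74, 1.15 and 1.63, and on array 4 they were 0.90, 1.26 and 1.59. On array 1a the 16 ran from 0.23 to 1.95 with a median of 1.23. That median is from the authors' value table, which was made by other steps, so it is not directly comparable with the scanner medians.

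The 10 with a mean below 1 had a lowest, median and highest log2 ratio of 0.61, 0.78 and 1.04 on array 2. On array 1b the values were 0.64, 0.89 and 1.45, and on array 4 they were 0.63, 0.80 and 1.27. On array 1a they ran from 0.45 to 1.68 with a median of 0.85. The smallest mean was that of CGENXEB_456015799_0, which was bright (a mean log2 level of 14.28 against a median of 9.79 for all judged probes) and steady, at 0.75, 0.64 and 0.63 on arrays 2, 1b and 4. Its SD of 0.065 was the smallest of the 38, and array 1a gave 0.58. CGENXEB_456014014_0, another bright probe, gave 1.04, 0.65 and 0.65 on the slides and 0.45 on array 1a.

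At the edge of the choice the 0.6 limit divided neighbouring values. Just inside lay CGENXEB_456004049_0, whose lowest slide was 0.61 on array 2 although arrays 1b, 4 and 1a gave 1.45, 0.93 and 1.68. CGENXEB_456016030_0 followed with 0.63 on array 4. Just outside lay CGENXEB_456002028_0 at 0.596 on array 4, while arrays 2, 1b and 1a gave 0.96, 1.89 and 1.42. CGENXEB_456010626_0, at 0.592 on array 4, had 1.38, 1.31 and 1.09 on arrays 2, 1b and 1a. CGENXEB_456001891_0 missed the limit on array 1b, at 0.564, and narrowly on array 4, at 0.5999. CGENXEB_456010295_0 missed it on array 1b, at 0.561. The excess of the first pair of probes left out was thus as large elsewhere as that of probes inside.

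Missing values also bounded the list. An unflagged spot was lacking on 1 slide for 2557 probes, and 4 of these were at least 0.6 on both other slides. CGENXEB_456010132_0 was one of them, with 1.18 on array 2, 1.104 on array 4, 1.43 in its flagged spot on array 1b and 1.70 on array 1a. CGENXEB_456014194_0 was the second such case, at 0.85 on array 1b, 0.75 on array 4, 0.89 in the flagged spot on array 2 and 0.74 on array 1a. The flagged spots of the other two were below 0, at -0.43 for CGENXEB_456004393_0 and -0.13 for CGENXEB_456003490_0. These 4 were named after their values were seen. A further 688 probes lacked unflagged spots on more than 1 slide and were not judged.

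By the median SD, the 38 were somewhat more spread over the 3 slides than all judged probes. The SD of the log2 ratio ran from 0.065 to 0.563 with a median of 0.259, and the median over all judged probes was 0.216. These SDs are over the ratios that made the choice, and the 38 were brighter than most judged probes. The difference in SD is therefore not read as a trait of the 38. For 20 of the 38 the highest and the lowest slide differed by less than 0.5. Array 2 was the highest slide for 20 probes, array 1b for 9 and array 4 for 9, whereas array 4 was the lowest for 19. The same counts over all judged probes are not given here, so they are not read as a trait of the 38. No slide was the highest for all 38 probes, and none was the lowest for all of them.

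Array 1a was the only array the choice did not use, and all 38 probes were above 0 there, where 47.9% of all judged probes were. At least 0.6 were 32 of the 38 (84.2%), against 1.47% of all judged probes. At least 1 were 24 of the 38, against 0.302% of all, and these 24 are among 39 judged probes that reached 1 on array 1a. The median of the 38 was 1.30, with values from 0.23 to 2.46, and the median over all judged probes was -0.0086. No test was made on a single array. Since array 1a carries the same pair number as array 1b, with the dyes the same way round, it cannot stand as a further RNA pair. Over all judged probes, Pearson's r of its values was 0.56 with array 1b and 0.54 with array 2, a slide that made the choice. Whether its values are separate from those of array 2 was not tested.

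The 6 probes under 0.6 on array 1a were CGENXEB_456002165_0 (0.23), CGENXEB_456014014_0 (0.45), CGENXEB_456004297_0 (0.46), CGENXEB_456015799_0, CGENXEB_456011184_0 and CGENXEB_456008593_0. The last 3 lay at 0.58. On arrays 2, 1b and 4 CGENXEB_456002165_0 had given 0.68, 0.97 and 1.59. CGENXEB_456011184_0 was the exception in size, since it had been at least 1.04 on each of the 3 slides. The value table tends to smaller ratios: a line fitted over all judged probes had slopes of 0.833, 0.680 and 0.643 on the scanner ratios of arrays 2, 1b and 4. A value of 0.58 in the table is thus not directly comparable with a scanner ratio of 0.6.

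Within the value table, the 38 probes differed between arrays 1a and 1b by a median of 0.21, between 1a and 2 by 0.25 and between 1a and 4 by 0.31, all in log2 units and without sign. The same medians over all judged probes were 0.11, 0.19 and 0.21. These differences are small beside the 1.30 median ratio of the 38 on array 1a. Over all judged probes the columns of the table agreed less evenly: Pearson's r of array 1a was 0.56 with array 1b, 0.54 with array 2 and -0.06 with array 4. Between the other arrays it lay between 0.06 and 0.17. These are across probes, which are not independent replicates, and no direction of an array is drawn from them.

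Each slide was also read as one that had not chosen, by applying the 0.6 limit to the other 2 slides alone. On arrays 1b and 4 together 44 judged probes passed, and on array 2 38 of these (86.4%) reached 0.6, against 2.00% of all judged probes. Arrays 2 and 4, both with klf4-MO in Cy5, gave 57 probes, of which 38 (66.7%) reached 0.6 on array 1b, the slide with the dyes the other way round. The share of all judged probes there was 1.83%. Arrays 2 and 1b gave 55 probes, of which 38 (69.1%) reached 0.6 on array 4, against 4.60% of all. The medians on the slide left out, mostly of the 38 themselves, were 1.27, 0.93 and 1.00 for arrays 2, 1b and 4. By the rule itself, the 38 that reached 0.6 are each time the same 38 probes described here. The shares therefore differ only by how many further probes passed on the other 2 slides. The shares were not tested, since each rests on 1 slide, and they are no support separate from the choice.

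The probes that failed on the slide left out were mostly weaker there rather than turned. Of the 6 that failed on array 2, 3 were below 0: CGENXEB_456013118_0 at -1.07, CGENXEB_456000211_0 at -0.93 and CGENXEB_456006160_0 at -0.76. Of the 19 that failed on array 1b, 4 were at or below 0, and the lowest were CGENXEB_456001285_0 at -1.03 and CGENXEB_456007877_0 at -0.85. On array 4 17 failed and 2 of these were below 0, the lower at -0.27. These probes were named after their values were seen.

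The dye swap asks whether a ratio depends on which dye a morpholino's RNA carried. With klf4-MO in Cy5 the ratio was higher for 19 of the 38 probes and with klf4-MO in Cy3 for the other 19, and the median difference was -0.0013 on the log2 scale of the value table. In limma, with a term for the morpholino and a term for the dye over the 4 arrays, 0 of the 38 passed an adjusted p of 0.05 for the dye term, as did 0% of all judged probes. The smallest adjusted p among the 38 was 0.272. At an unadjusted p under 0.05 were 3 of the 38 (7.89%), against 16.3% of all judged probes. The rule asked for at least 0.6 with klf4-MO in either dye, so probes whose excess was lost with 1 dye were kept out. The slides that chose the 38 are also 3 of the 4 arrays fitted. The even split, the median difference and the share of the 38 are thus partly set by the choice. This fit leaves 2 residual degrees of freedom, and its dye term also sets pair 1 apart from the other pairs, so dye and pair cannot be told apart. It counts arrays 1a and 1b, which carry the same RNA pair number, as separate arrays, so its errors and p-values rest partly on repeat hybridisation of what may be the same RNA. With these averaged into 1 value, an alternative chosen after seeing the data, 1 residual degree of freedom was left, 0 of the 38 had an unadjusted p under 0.05 (3.39% of all judged probes did) and the smallest adjusted p in limma was 0.908. The count of 3 became 0 without array 1a, 5 without array 2 and 6 without array 4, where 3.65%, 19.5% and 19.9% of all judged probes passed.

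The 3 probes nearest to a dye difference were CGENXEB_456012933_0, CGENXEB_456004049_0 and CGENXEB_456014014_0. The mean log2 ratio of CGENXEB_456012933_0 was 1.49 with klf4-MO in Cy5 and 1.96 in Cy3, a difference of -0.47 (SE 0.133, adjusted p = 0.272 in limma). For CGENXEB_456004049_0 the means were 1.02 and 1.55 (difference -0.52, SE 0.153, adjusted p = 0.276 in limma). CGENXEB_456014014_0 went the other way, at 0.96 in Cy5 and 0.50 in Cy3 (difference 0.46, SE 0.154, adjusted p = 0.292 in limma). All 38 were above 0 in both orientations. The rule had asked for at least 0.6 with klf4-MO in either dye, on slides that also enter these means. This outcome is thus largely set by the choice and is no separate check of the dye swap.

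The brightness of a spot bears on how well its ratio was measured and depends on the probe, so it does not rank transcripts. It is described here for the 38 on the channels whose ratios chose them. The offset of 50 added in background correction shrinks the ratios of dim probes, which can favour bright spots in the choice. How far it did so was not tested. In STD-MO, the median log2 level of members minus that of all judged probes was 0.735 with this offset and 0.772 with an offset of 0. After loess and quantile scaling between arrays, the STD-MO channel of the 38 had a median log2 level of 10.38, 10.43 and 10.79 on arrays 2, 1b and 4. The corresponding medians of all judged probes were 9.84, 9.77 and 9.78. In STD-MO 29 of the 38 lay above the median of all. In the klf4-MO channel the medians of the 38 were 11.98, 11.95 and 12.39, which the choice on the ratio raises by construction.

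By mean level over both channels, 20 of the 38 lay above the upper quartile of the judged probes, 36 above the median and 0 below the lower quartile. Their mean levels ran from 9.70 to 14.55, with a median of 11.31. The mean level includes the klf4-MO channel, which the choice on the ratio raises. These counts and levels are thus partly set by the choice.

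The dimmest of the 38 by mean level were CGENXEB_456002022_0, CGENXEB_456008593_0 and CGENXEB_456011009_0, with STD-MO levels of 8.85, 9.31 and 9.31. The brightest were CGENXEB_456012998_0, CGENXEB_456015799_0 and CGENXEB_456014014_0, with STD-MO levels of 13.52, 13.95 and 13.52. A spot counted as above background when its foreground passed the local background by 2 SDs of the background. By this measure 37 of the 38 were above background in both channels on all 3 slides, so their ratios there rest on signal in both RNAs. The same share of all judged probes is not given here, so this count is not read as a trait of the 38. The exception among the 38 was CGENXEB_456005749_0, which was not above background in STD-MO on array 1b, where 9.42% of all judged probes were not. Its ratio on array 1b, which the rule used, therefore does not rest on signal above background in both RNAs by this measure. The STD-MO foreground of this probe there was 899 over a local background of 350. On the slides where both channels were above background its log2 ratio was 1.74 on array 2 and 0.90 on array 4, and array 1a gave 1.38.

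The spots of the 38 were spread over the slide. Their 39 spots lay in 22 of 32 print blocks, with at most 3 in a block, and no pair of them was printed next to each other. The 282 probe spots next to them had median log2 ratios of 0.018, -0.014 and 0.0062 on arrays 2, 1b and 4. Of the unflagged ones, 2.26%, 2.69% and 2.07% were at least 0.6 on these arrays, against 2.00%, 1.83% and 4.60% of all judged probes. By their medians, the surroundings of the 38 probes lay near 0 on each slide.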

How the data were processed

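The scanner files hold spot intensity as deposited, per the file headers ImaGene output of the red and green images, with no background subtraction or normalisation. The authors' deposited value table holds log2 ratios, made by steps not given in the sources used here. Here R 4.3.3 with limma 3.58.1 was used: normexp (offset 50) on foreground and background medians, then a global loess that gave no weight (0) to controls and flags. Flagged spots were left out, every ratio was set as klf4-MO relative to STD-MO, and a probe's spots were averaged.

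The 16199 numbered table rows equal the 16199 names on the slide and follow the order of printing, with 1 missing number given to the last row. The 2 control names numbered apart (Blank and ssDNA) were those with the highest mean correlation with the scanner ratios (0.903, next 0.902). The 9 best pairs gave identical values for all 38 probes on array 1a. In 33 of 33 windows of up to 500 rows the alignment was best without a shift.

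The dye term was fitted with lmFit and eBayes over 12931 probes, with Benjamini-Hochberg adjustment, and tested on simulated data. The simulated dye effects were far larger than those of the members, and the arrays were simulated as independent. The simulation therefore does not show whether differences of the members' size would be found. The members, lists and tests were chosen with earlier results of these data known. The probes named are the 12 largest by mean, 4 on each side of the limit, the brightest and dimmest 3, those printed more than once and any below 0 on array 1a (0 were). Other probes named, among them those under 0.6 on array 1a, the one not above background, those with flagged spots and those that failed on a slide left out, were chosen after their values were seen. Gene lists set aside for named probes were not used, for want of gene names. Alternatives covered background, normalisation, scaling, flags, thresholds, detection, source of values and each slide.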

Additional observations from a re-analysis of the deposited data

Results flagged for a closer look

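Of the 38 probes, 2 had 1 array apart from the other 3 in the authors' value table. By chance alone about 1 group in 20 would show it. The count of 2 of 38 is near that rate, and the same count over all judged probes was not made. It is therefore not read as a result about the 38. CGENXEB_456008593_0 stood at 0.94 on array 1b, with the other 3 arrays between 0.562 and 0.584, although its scanner ratios ran from 0.71 to 1.00. CGENXEB_456015799_0 stood at 0.79 on array 2, with the other 3 between 0.561 and 0.580. In both the array apart was the highest, and the cause was not tested.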

How the results depend on the processing

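The choice of probes depended in part on the processing. Under 9 settings of background correction, normalisation, scaling, flags, spot summary and source of values, the rule gave 33 to 47 probes, 31 to 38 of them among the 38. All 38 stayed above 0 on every slide in each of these settings, which their choice at 0.6 on the same slides makes likely. The rule was passed in all 9 settings by 30, and 8 were lost in some setting. CGENXEB_456015799_0 passed in 4 of the 9 and CGENXEB_456014014_0 in 5. With a limit of 1 in place of 0.6 there were 22. Choosing on 2 slides gave 44 to 57 probes.

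On array 1a the share of at least 0.6 was 95.5% of probes chosen at a limit of 1, and 59.6% to 79.5% of those chosen on 2 slides, lowest without array 1b. Of all judged probes 1.47% were at least 0.6 there. Of the 38, 100% were above 0 and 63.2% at least 1, against 47.9% and 0.302% of all judged probes. On the slide left out, at least 1 was reached by 65.9%, 45.6% and 50.9% on arrays 2, 1b and 4. Above 0 lay 93.2%, 93.0% and 96.4% on these arrays. The shares of all judged probes at these limits on the slides left out are not given here. The shares on the slides left out are therefore not read as a result about the probes. For the dye term 3 of the 38 had an unadjusted p under 0.05 (0 to 6 with an array left out, 0 on the 3 scanner slides and 0 with the arrays of pair 1 averaged, an alternative chosen after seeing the data). The smallest adjusted p ran from 0.199 to 0.908 in limma, and 0 passed an adjusted p of 0.05 in limma under any alternative run, although so few residual degrees of freedom make this no measure of stability. Each array already compares the RNAs of 1 pair, and a further fit with the pair number as a replicate block could not be run, since its correlation could not be estimated. Signal limits 2 saturated probes and 1 not above background on array 1b.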
